A study of Mus musculus with 14 samples.

Results

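The genes described here carry out antigen presentation by MHC class II molecules in the thymus of estradiol- and genistein-treated mice. They were chosen by name as H2-Aa, H2-Ab1, H2-Eb1, H2-DMa, H2-DMb1, H2-Oa, H2-Ob, Cd74 and Ciita, and every probe set annotated to 1 of these 9 genes alone was taken. This gave 11 of the 22690 probe sets on the array, standing for 7 of the 12394 genes that have a probe set of their own. H2-DMb1 and H2-Ob appeared only on probe sets that also name another gene, 3 in all, and are therefore not measured here. Of the 11 probe sets 10 passed the limit on brightness and were tested. The dimmer of the 2 for Ciita did not pass. The mice were female C57BL/6, an inbred strain, that arrived at 21 days of age, lost their ovaries at 26 days, ate a phytoestrogen-free diet before treatment and entered the experiment at 30 days. Controls were taken untreated at day 0. The estradiol groups received a daily injection under the skin of 125 ng of 17β-estradiol in 0.02 ml of corn oil for 2, 3 or 6 days, and the genistein groups ate a diet with 1500 ppm of the soy isoflavone genistein for the same times. Each of the 7 groups had 2 arrays, each of RNA pooled from 3 animals, so that a p-value speaks of the spread between pools. Untreated mice of days 2, 3 and 6 and mice injected with oil alone were not analysed here, so treatment, time, injection and oil cannot be told apart in a comparison with controls. Between the treatments the compound cannot be told apart from its route, injection in oil against diet.

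MHC class II molecules hold peptides of proteins taken up by a cell and show them to CD4 T cells. H2-Aa and H2-Ab1 encode the α and β chains of I-A, and H2-Eb1 the β chain of I-E. The invariant chain, encoded by Cd74, fills the groove of new molecules and guides them to the endosome, where the DM heterodimer (H2-DMa with H2-DMb1) exchanges its last fragment for peptide and the DO heterodimer (H2-Oa with H2-Ob) restrains DM. Ciita is the transactivator that switches the family on at a shared promoter module of X and Y boxes. In the thymus, cortical epithelial cells use class II to select CD4 thymocytes, while medullary epithelial cells, dendritic cells and B cells use it to test them against self peptides.

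Promoter stretches from RefSeq (GRCm38.p6) were matched for 6 of the 9 genes, and 3 measured ones are printed to show where letters of this module lie: those of the Y box in all 3, those of the X box in H2-Eb1 alone. All lie in the MHC on chromosome 17. They are the 120 bases that end just before the annotated start. H2-Aa is at chr17:34287824-34287943 on the minus strand, H2-Eb1 at chr17:34305747-34305866 on the plus strand and H2-Oa at chr17:34092259-34092378 on the plus strand. Capitals mark GATTGG, the core of the Y box, on either strand, and AACNNATG, a short form of the X box.
H2-Aa: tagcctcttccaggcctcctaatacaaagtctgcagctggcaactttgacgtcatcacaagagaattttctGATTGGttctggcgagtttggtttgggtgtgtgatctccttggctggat
H2-Eb1: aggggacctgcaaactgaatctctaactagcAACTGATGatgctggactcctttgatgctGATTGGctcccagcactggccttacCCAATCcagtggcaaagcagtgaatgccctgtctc
H2-Oa: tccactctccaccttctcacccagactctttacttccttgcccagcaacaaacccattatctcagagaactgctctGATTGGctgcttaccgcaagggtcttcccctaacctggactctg

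In these 3 stretches a forward GATTGG began 49, 60 and 44 bases before the start, and the longer CTGATTGG, which contains it, was present in each. The short X-box pattern AACNNATG was found in H2-Eb1, 89 bases before the start, and not in the windows of H2-Aa and H2-Oa. A miss of this 1 pattern does not show that an X box is absent. Over all 250 bases before the start, and over both strands, GATTGG occurred in 14.6% of 32851 promoters, CTGATTGG in 3.83% and AACNNATG in 7.71%. Both GATTGG and AACNNATG occurred in 1.13%. H2-DMb1 and H2-Ob held both as well. Of the 2 promoters listed for H2-DMa, the first held neither and the other held GATTGG 199 bases before its start. The letters were chosen with these sequences in view, and a match describes the sequence only.

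Before comparison every array was multiplied to a 2%-trimmed mean of 150.04. The deposited signals of estradiol day 2 replicate 2 and of both estradiol day 3 arrays had been 1.49, 2.00 and 2.23 times that value, which was shared by the other 11 arrays. Control replicate 2 correlated least with the rest (mean r = 0.942, against 0.952 to 0.969). The 3' to 5' ratio of Gapdh, a measure of RNA breakdown, was highest for genistein day 6 replicate 1 (1.503) and estradiol day 2 replicate 1 (1.266), with at most 1.105 elsewhere. Since control replicate 2 correlated least, the H2-Ab1 calls and the results of some marker lists with estradiol are also given without it. The other comparisons with controls rest on it too, and their single values are not given without it. Levels are rescaled signals. Changes are differences of log2(signal + 16) from limma, given with their SE, with p adjusted over the 13575 probe sets tested and a probe set called at an adjusted p of 0.05. Signals of different probe sets are not comparable with each other.

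The first comparison set the estradiol groups, as the mean of their 3 days, against the controls and asked how thymic class II expression differed under the hormone. H2-Ab1 rose 1.47-fold on its brightest probe set and 1.56-fold on its second, whose probes may match other transcripts too, and these were the 2 calls among the 10 probe sets, where 0.604% of all probe sets tested were called and 0.530% were called higher. All 10 changes were positive, with a median log2 change of 0.48, while the median over all tested probe sets was 0.0048 and 50.9% were positive. On 9 of the 10, each of the 6 estradiol arrays lay above both control arrays, as was so for 8.04% of all probe sets. The exception was H2-Eb1. At an unadjusted p of 0.05, 9 of the 10 passed, against 14.8% of all 13575. Several probe sets share a gene: by the brightest of each gene, 6 of 7 passed and 1 was called. The members were chosen with earlier results of these data known. Shares of all probe sets, here and below, therefore stand beside the members as a description and do not test them as a set. In whole-organ RNA a change in the number of cells that express a gene and a change in RNA per cell cannot be told apart.

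**Figure D1:**
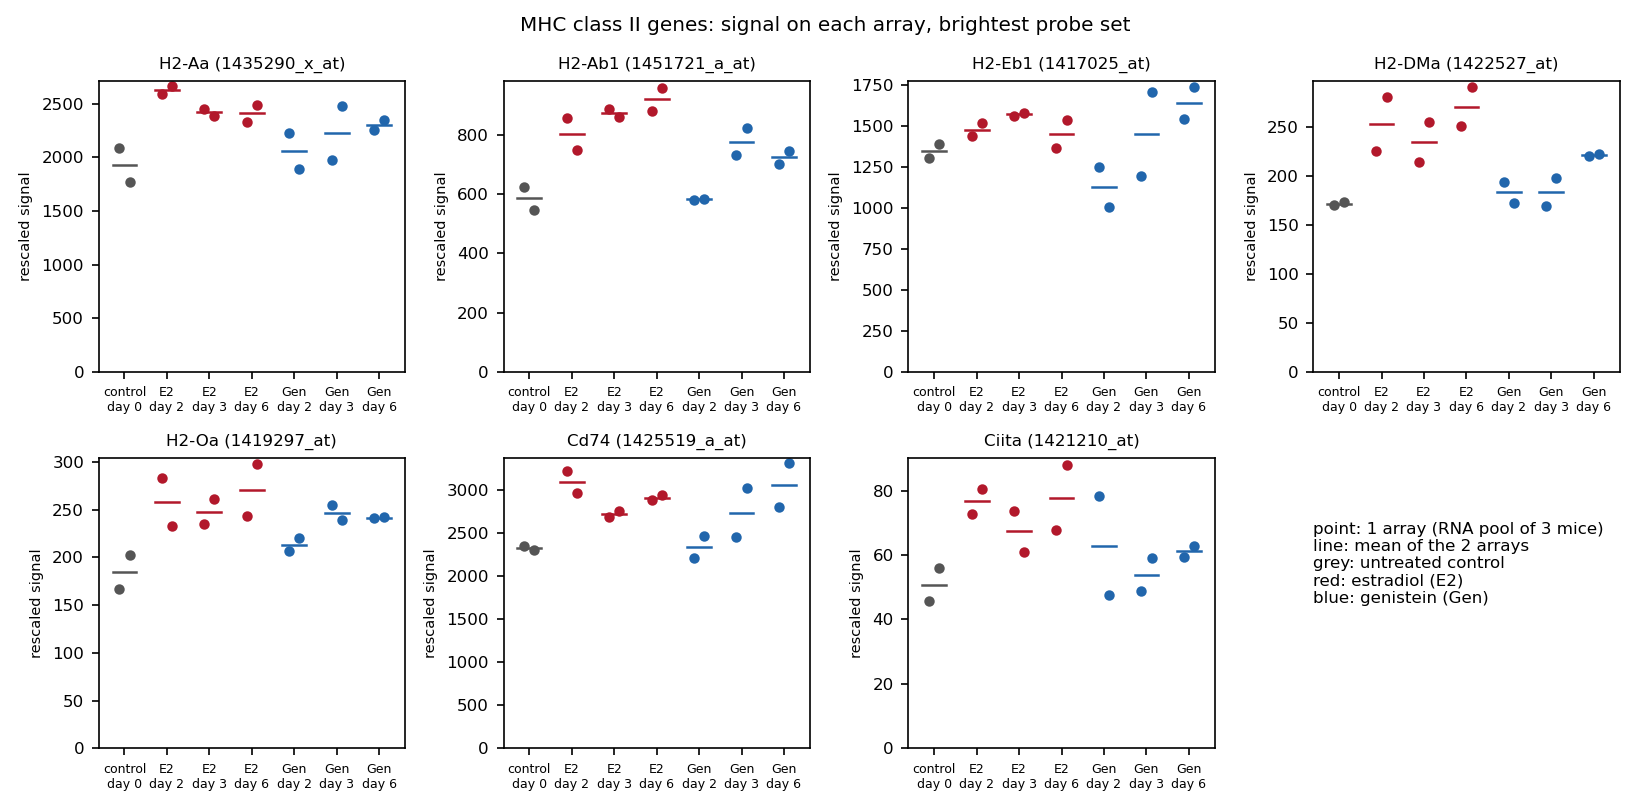
Rescaled signal of the brightest probe set of each of the 7 measured class II genes on the 14 arrays, by group (grey control, red estradiol, blue genistein). Points are single arrays and lines are means of 2. The red points of H2-Ab1 lie between 748 and 959, all above the control points of 546 and 625, while those of H2-Eb1 overlap with its controls.

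H2-Ab1, the β chain of I-A, gave signals of 625 and 546 on the control arrays. With estradiol the pairs were 856 and 748 (day 2), 888 and 860.4 (day 3), then 880.2 and 959 (day 6). Every estradiol array was thus above both controls. With genistein the signals were 581.5 and 584 on day 2, between the controls. The pairs of 732 and 823 (day 3) and 703 and 745 (day 6) were all above the controls. Ordered by mean, the groups ran from genistein day 2 (583 ± 1.56, SD, n = 2) and control (585 ± 55.9) to genistein days 6 and 3 (724 ± 29.4 and 777 ± 64.4) and estradiol days 2, 3 and 6 (802 ± 76.0, 874 ± 19.3 and 920 ± 55.9). Only the step from control to genistein day 6 exceeded the larger SD of the neighbouring groups.

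The log2 change of H2-Ab1 over the days of estradiol was 0.55 ± 0.106 (limma, adjusted p = 0.0364). At single days it was 0.44 ± 0.130 at day 2 (adjusted p = 0.249), 0.57 ± 0.130 at day 3 (adjusted p = 0.183) and 0.64 ± 0.130 at day 6 (adjusted p = 0.0434), so that the single-day call was that of day 6. The second probe set read 553 and 501 in controls and, with estradiol, 811 and 609 (day 2), 798 and 940.5 (day 3), then 896 and 979 (day 6). All of these estradiol values were above the controls. Its change was 0.64 ± 0.122 over the days (adjusted p = 0.0333) and 0.81 ± 0.149 at day 6 (adjusted p = 0.0249). The ending of its name (_s_at) marks probes that can match more than 1 transcript, so this call may not be specific to H2-Ab1. Another probe set, of a similar kind (_x_at), ran from 337 to 528 with estradiol against 298 and 248 in controls. It stood at 0.60 ± 0.146 and was not called (adjusted p = 0.0805).

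Without control replicate 2 the H2-Ab1 changes were 0.46 and 0.57 with adjusted p of 0.479 and 0.389, so both calls over the days of estradiol, and both at day 6 (adjusted p = 0.316 and 0.211), rested on that array. They were also lost without either day 3 or either day 6 array of estradiol (adjusted p of 0.0542 to 0.121 over the days). At day 6 both calls were lost without either day 6 array (adjusted p of 0.164 to 0.468), and that of the brightest probe set also without any 1 array of estradiol day 3 or of genistein days 2 and 3 (adjusted p of 0.0528 to 0.0896). With the 3 arrays of another deposited scale left out, the changes were 0.59 and 0.71 and the second probe set alone was called (adjusted p = 0.107 and 0.0470). As deposited, the brightest probe set stood at 1.00, where the median of all probe sets was shifted by 0.43. The change of H2-Ab1 was positive under all 26 alternatives and called in 14 of them for the brightest and 17 for the second probe set. With the replicate number as a block, the brightest probe set had an adjusted p of 0.0510 and was not called, and the second had 0.0494.

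**Figure D2:**
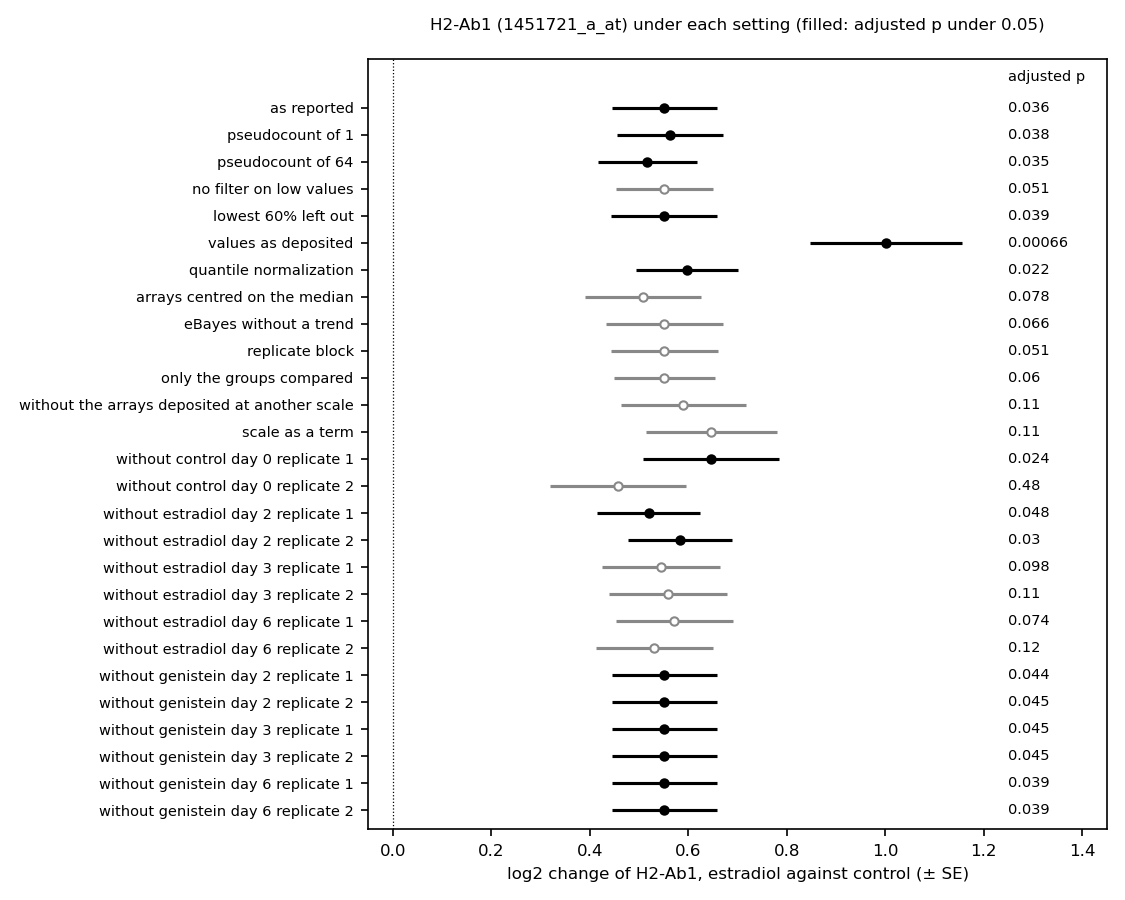
Log2 change of the brightest H2-Ab1 probe set, estradiol against control over the mean of days, under the reported setting and 26 alternatives (rows), with SE as bars and the adjusted p at the right. Filled points mark an adjusted p under 0.05. The change lies between 0.46 and 0.65 except on the deposited scale, where it is 1.00, and the adjusted p is highest, 0.48, without control replicate 2.

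H2-Aa, the α chain that pairs with H2-Ab1, read 2085 and 1766 in controls. Its brightest probe set, an _x_at one as well, gave, with estradiol, 2591 and 2662 (day 2), 2451 and 2388 (day 3), then 2332 and 2492 (day 6). All 6 were above the controls, by a log2 change of 0.37 ± 0.108 that was not called (adjusted p = 0.134). With genistein the arrays read 2229 and 1892, 1979 and 2475, and 2259 and 2353 at days 2, 3 and 6, and those of the first and middle times overlapped with the controls. In the order of group means, from control to estradiol day 2, the last step alone, from estradiol day 3 to day 2, exceeded the larger SD. The dimmer H2-Aa probe set (_s_at) stood at 0.51 ± 0.189 (adjusted p = 0.226), with control signals of 741 and 611 and estradiol signals of 864 to 1271.

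H2-Eb1, the β chain of I-E, had the smallest change among the 10 class II probe sets. It read 1308 and 1393 in controls and 1368 to 1584 with estradiol, where the groups overlapped. The log2 change was 0.15 ± 0.132 (adjusted p = 0.629), with a 95% interval from -0.13 to 0.43. At day 2 of genistein the signals were 1252 and 1007, both below the controls, and at day 6 they were 1545 and 1737, both above. Between these lay 1194 and 1709 at day 3. The moderated F test in limma for change over the days of genistein gave an adjusted p of 0.787, so no difference between days was called. Only the steps from genistein day 2 to control and from estradiol day 2 to day 3 exceeded the larger SD. The strain belongs to a haplotype whose gene for the I-E α chain, H2-Ea, is not transcribed. The 3 probe sets of H2-Ea had median signals of 16.5, 10.4 and 4.55 over the 14 arrays and a highest signal of 23.8, below the lowest mean that was tested (44.5).

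Cd74, the invariant chain, gave 2353 and 2311 on the control arrays. With estradiol it read 3224 and 2974 on day 2, 2689.9 and 2767 on day 3, then 2886 and 2947 on day 6, each above both controls. The change over the days was 0.32 ± 0.102 (adjusted p = 0.170). With genistein the signals were 2212 and 2474 on day 2, on either side of the controls, 2462 and 3024 on day 3, then 2808 and 3323 on day 6. In the order of group means, which ended with genistein day 6 (3065 ± 364) and estradiol day 2 (3099 ± 177), only the step from genistein day 2 to estradiol day 3 exceeded the larger SD.

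H2-DMa, a chain of the peptide exchanger DM, read 170.0 and 173 in controls. With estradiol it gave 225.5 and 281 (day 2), 215 and 255 (day 3), then 251 and 290.4 (day 6). The lowest estradiol array was above the higher control, and the change was 0.51 ± 0.130 (adjusted p = 0.0934), not called. Genistein arrays read 194 and 173 (day 2), 169.5 and 197.5 (day 3), then 220.1 and 222 (day 6), so that the day 6 arrays alone were both above the controls. The step from genistein day 3 to day 6 was the one between neighbouring group means that exceeded the larger SD.

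H2-Oa, a chain of DO that restrains DM, read 167 and 203 in controls and 283 and 233, 235 and 261, and 243 and 298 at days 2, 3 and 6 of estradiol. Its change was 0.45 ± 0.130 (adjusted p = 0.126). H2-Oa was also the member whose 6 genistein arrays, at 206 to 254.5, all lay above both controls, with a change of 0.32 ± 0.130 (adjusted p = 0.402). The arrays of both treatments overlapped. In the order of group means, the steps from control to genistein day 2 and from there to genistein day 6 exceeded the larger SD. The later steps, up to estradiol day 6, did not.

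Ciita, the transactivator of the family, was the dimmest member tested. It read 45.6 and 56.0 in controls and, with estradiol, 72.8 and 80.6 (day 2), 73.7 and 61.0 (day 3), then 67.7 and 88.0 (day 6). These 6 were above the controls, by 0.43 ± 0.176 (adjusted p = 0.278). Genistein arrays gave 78.3 and 47.5, 48.7 and 59.0, and 59.5 and 62.7, and overlapped with controls at days 2 and 3. The second Ciita probe set, below the brightness limit, ran from 26.1 to 64.1 over the 14 arrays. Its estradiol signals of 35.7 to 48.2 lay between the 2 controls (34.2 and 56.3), so the probe sets of Ciita did not show the same pattern.

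By single day of estradiol, 0 of the 10 probe sets were called at days 2 and 3 by limma, where 0.0884% and 0.0663% of all probe sets were called. At an unadjusted p of 0.05, 8 and 6 passed, against 12.3% and 10.2% of all probe sets. At day 6 the 2 calls were both H2-Ab1, where 0.656% of all were called and 0.611% were called higher. Both estradiol arrays lay above both controls for 10, 10 and 9 of the 10 on days 2, 3 and 6, as they did for 20.8%, 23.6% and 24.9% of all probe sets. The median log2 changes were 0.45, 0.41 and 0.50 at days 2, 3 and 6. A moderated F test of change over the days of estradiol called 0 of 10, where 0.0221% of all probe sets were called. At an unadjusted p of 0.05 it passed 1 of 10 and 6.92% of all.

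Genistein against the same control arrays addressed what differed on the isoflavone diet. Averaged over days, limma called 0 of the 10 probe sets, where 0.0368% of all probe sets were called. At an unadjusted p of 0.05, 4 of the 10 passed, against 11.1% of all. All 10 changes were positive with a median of 0.22 (all probe sets, 0.011). The largest was that of the dimmest H2-Ab1 probe set, at 0.35 ± 0.146 (adjusted p = 0.410), and that of H2-Eb1 was 0.03 ± 0.132. All 6 genistein arrays lay above both controls for 1 of the 10, H2-Oa, and for 4.49% of all probe sets. The medians by day were 0.091 at day 2, 0.31 at day 3 and 0.33 at day 6, with 0 called by limma on each day, where 0.0147%, 0.00737% and 0.00737% of all were. At an unadjusted p of 0.05, 0, 4 and 5 passed on these days, against 11.8%, 5.73% and 10.4% of all. Both arrays lay above both controls for 1, 6 and 9 of the 10 at days 2, 3 and 6, as they did for 21.5%, 14.6% and 18.9% of all probe sets. Both lay below the controls on day 2 for 1, H2-Eb1, and for 17.5% of all. Change over the days of genistein was not called for any (0 of 10 by limma), and 0 of all probe sets were, while 4 of 10 and 5.79% of all had an unadjusted p under 0.05. The second H2-Ab1 probe set ranked first among them (adjusted p = 0.612) and read 526 and 494 (day 2), 793 and 794 (day 3), then 735 and 769.5 (day 6).

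**Figure D3:**
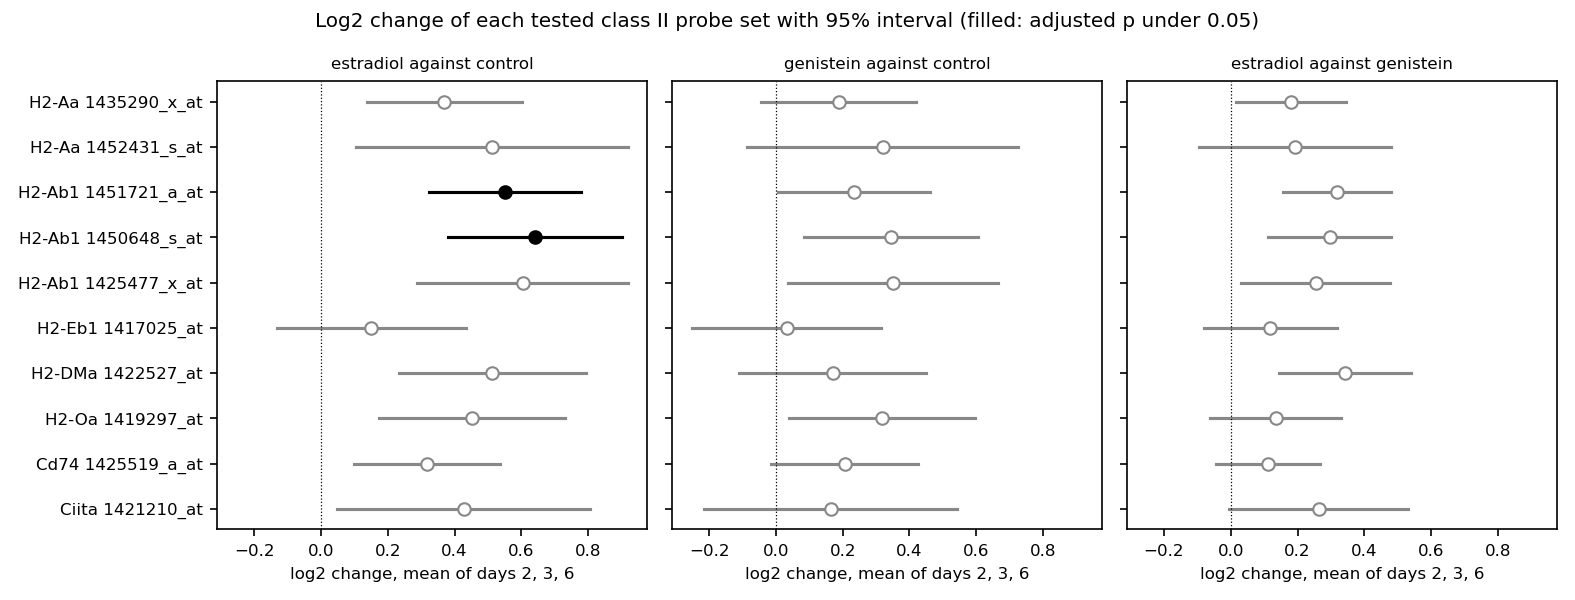
Log2 change over the mean of days 2, 3 and 6 for the 10 tested class II probe sets, with 95% intervals. The panels show each treatment against the controls and then the 2 treatments against each other. Filled points mark an adjusted p under 0.05. Both are H2-Ab1 under estradiol, at 0.55 and 0.64, and the other points are open. The first 2 panels share the control arrays.

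Estradiol, injected in oil, was also set against genistein, given in the diet, so that route and compound differ together. Over the mean of days 0 of the 10 probe sets were called by limma, where 1.41% of all probe sets were, while 5 of the 10 and 17.1% of all had an unadjusted p under 0.05. All 10 differences were positive, with a median of 0.22 against -0.0016 for all probe sets. The brightest H2-Ab1 probe set was 0.32 ± 0.0751 higher with estradiol (adjusted p = 0.0563, 95% interval 0.16 to 0.48) and H2-DMa 0.34 ± 0.0922 higher (adjusted p = 0.0818, interval 0.14 to 0.54). Intervals for H2-Aa (0.017 to 0.35), H2-Eb1 (-0.082 to 0.32), H2-Oa (-0.063 to 0.33), Cd74 (-0.043 to 0.27) and Ciita (-0.0045 to 0.53) show what sizes these data leave possible. In 0 of the 10 did all estradiol arrays lie above all genistein arrays, as was so for 0.965% of all. The differences of the 2 brighter H2-Ab1 probe sets were 0.32 and 0.30 with all arrays. With estradiol day 2 replicate 2 left out, an array of another deposited scale, they were 0.35 and 0.36. Values of this comparison with other arrays left out are not given.

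Among the single days, the median difference between the treatments was 0.40 at day 2, 0.13 at day 3 and 0.21 at day 6. Day 2 was where both estradiol arrays lay above both genistein arrays for 7 of the 10 (15.4% of all probe sets), with 0 called by limma, where 0.0810% of all were. At an unadjusted p of 0.05, 6 passed, against 6.72% of all. At that time Cd74 differed by 0.40 ± 0.125 (adjusted p = 0.434) and H2-Eb1 by 0.39 ± 0.161 (adjusted p = 0.695). At day 6 the differences of Cd74 and H2-Eb1 were -0.07 and -0.17, that of H2-Ab1 0.34. At days 3 and 6 there were 0 and 0 calls by limma, where 0.0147% and 0.265% of all probe sets were called, and 0 and 1 at an unadjusted p of 0.05, against 6.70% and 13.4% of all. Estradiol arrays lay above genistein arrays for 4 and 6 of the 10 on those days (22.8% and 24.9% of all) and below them for 1 on day 6 (25.4% of all). The interaction of treatment and day was called for 0 of 10 and for 0 of all probe sets. Cd74 alone had an unadjusted p under 0.05 there (adjusted p = 0.9999), as had 4.24% of all.

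Across the 14 arrays the brightest probe sets of different class II genes correlated with each other in all 21 pairs (Pearson's r from 0.35 to 0.79, median 0.66), with H2-Aa and H2-DMa closest. After the group means were taken out, 16 of the 21 pairs were positive (median 0.36), the highest being H2-Aa with H2-Eb1 (0.78) and the lowest H2-Aa with H2-Oa (-0.42). Arrays share 1 scaling step, and these values are a description. The genes outside the family whose brightest probe sets followed the mean standardised level of the 7 most closely were Cbr2 (r = 0.936), a carbonyl reductase, Nfe2l1 (0.926), a transcription factor of proteasome genes, Cmip (0.919), the T cell surface protein Cd7 (0.8985), the transcription factor Cebpb (0.896), Gsto1 (0.892), a glutathione transferase, Cyp1b1 (0.890), an estrogen hydroxylase, lipoprotein lipase Lpl (0.889), the interferon-induced Ifit1 (0.888) and Prss16 (0.886), the thymus-specific serine protease of cortical epithelium. The r of the members themselves with that mean ran from 0.739 for H2-Eb1 to 0.906 for H2-Aa. Each member is part of that mean, and the outside genes were picked for the highest r, so these ranges are not comparable.

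Further genes of the pathway were taken from fixed lists, each gene led by its brightest probe set. Beside the counts at an unadjusted p of 0.05 stand 14.8% of all probe sets for estradiol and 11.1% for genistein, both over the mean of days. Among regulators of class II genes, which include the X-box factor subunits Rfx5, Rfxank and Rfxap, the Y-box factor Nfya, Nfyb and Nfyc and the interferon-γ receptor chain Ifngr1, 12 of 14 were tested and 0 passed with estradiol over the mean of days (0 at an unadjusted p of 0.05). Their median change was 0.073. Rfx5 stood at 0.11 ± 0.131 and Ifngr1 at 0.32 ± 0.201. The interferon gene Ifng was too dim to be tested, at a mean signal of 21.0.

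Of the genes that process antigen or the invariant chain, 7 of 10 were tested and 0 passed in limma, while 6 (of 7) had an unadjusted p under 0.05, with a median of 0.35. Cathepsin L (Ctsl), which trims the invariant chain in cortical epithelium, stood at 0.35 ± 0.0812 (adjusted p = 0.0682) and Ctsb at 0.45 ± 0.102 (adjusted p = 0.0646). Lgmn, an asparagine-specific endopeptidase, stood at 0.70 ± 0.196 and Ifi30, a lysosomal thiol reductase, at 0.51 ± 0.162. Cathepsin S (Ctss), which trims the invariant chain in dendritic and B cells, stood on the other side at -0.28 ± 0.108 (adjusted p = 0.238). Ctss, though lower, is 1 of the 6 with an unadjusted p under 0.05. With genistein 0 of the 7 passed (2 at an unadjusted p of 0.05), with a median of 0.23. H2-DMb2, the second β chain of DM, stood at 0.35 ± 0.193 with estradiol and 0.31 ± 0.193 with genistein.

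Class I presentation genes, which serve CD8 T cells, gave 0 calls among 12 tested of 13 (5 of 12 at an unadjusted p of 0.05), with 12 positive and a median of 0.26 for estradiol. H2-D1 and H2-K1, the class I heavy chains, stood at 0.56 ± 0.147 and 0.43 ± 0.128, neither of them called. Both values come from _x_at probe sets, 1 of 9 for H2-D1 and 1 of 4 for H2-K1, and may not be specific to the gene. With genistein the median was 0.12, with 0 calls and 4 at an unadjusted p of 0.05.

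**Figure D4:**
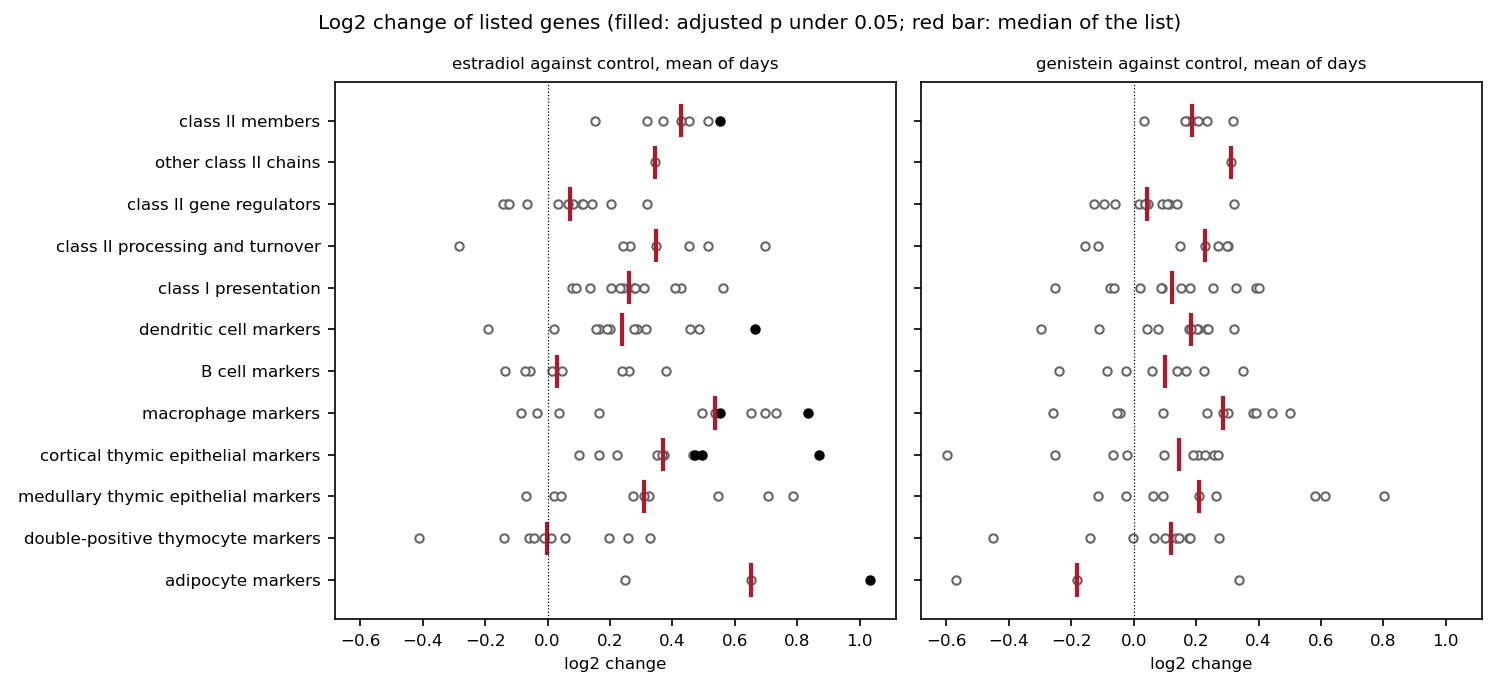
Log2 change over the mean of days of each tested gene (points) in 12 lists, for estradiol and for genistein against the same control arrays. Filled points mark an adjusted p under 0.05 and red bars the median of a list. For estradiol the class II members have a median of 0.43, between those of cortical epithelial markers (0.37) and macrophage markers (0.54), and for genistein no point is filled.

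Markers of cells that can carry class II were read beside these values. Beside the calls of each list with estradiol stand 0.604% of all probe sets called over the mean of days. Of the cortical epithelial markers 10 of 11 were tested and 3 rose with estradiol, Pax1 by 0.87 ± 0.158, the chemokine Ccl25 by 0.50 ± 0.0961 and Prss16 by 0.47 ± 0.0984. At an unadjusted p of 0.05, 7 of the 10 passed, with 10 positive and a median of 0.37. The summed signal of the list was 8679 to 8873 in controls, 10670 to 13260 with estradiol and 9483 to 10510 with genistein. Of the macrophage markers 11 of 14 were tested and 2 rose, the dying-cell receptor Mertk by 0.83 ± 0.170 and the growth factor receptor Csf1r by 0.55 ± 0.115. At an unadjusted p of 0.05, 7 of the 11 passed, with 9 positive and a median of 0.54. The sums were 2745 to 3011, 3480 to 3917 and 2748 to 3552 in the same order. Itgam and Marco, of that list, were near the floor at mean signals of 16.9 and 6.68.

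Of the dendritic cell markers 12 of 15 were tested and 1 rose, Sirpa, a receptor for CD47 that macrophages carry as well, by 0.67 ± 0.130. At an unadjusted p of 0.05, 2 of the 12 passed, near the share of all probe sets. Of the changes 11 were positive, with a median of 0.24. The integrin Itgax stood at 0.29 ± 0.179, Irf8 at 0.46 ± 0.121, and the sums were 1480 to 1490 in controls, 1713 to 2033 with estradiol and 1437 to 1811 with genistein. Medullary epithelial markers had 0 calls among 9 tested of 11 (4 at an unadjusted p of 0.05), a median of 0.31 and sums of 760.5 to 875, 949 to 1178 and 914 to 1107. Aire, the regulator of tissue antigens, stood at 0.71 ± 0.178 with estradiol (adjusted p = 0.0934) and 0.61 ± 0.178 with genistein (adjusted p = 0.325).

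B cell markers had 0 calls among 8 tested of 10 (1 of 8 at an unadjusted p of 0.05, near the share of all probe sets), a median of 0.029 and sums of 2388 to 2459, 2638 to 3238 and 2356 to 3297. Ighm, the IgM heavy chain, had a mean signal of 2138 and the other tested markers 68.1 to 138, so the sums mostly follow Ighm. Cd79a, a chain of the B cell receptor, stood at -0.14 ± 0.180 and Pax5 had a mean signal of 13.4. Markers of double-positive thymocytes, the bulk of the organ, had a median of -0.00046 with 0 calls among 10 tested of 12 (2 of 10 at an unadjusted p of 0.05, near that share too), and sums of 15240 to 15940, 14270 to 17280 and 16020 to 17930. Rag1, of the recombinase, and the coreceptor Cd8a, which other thymocytes express as well, had mean signals of 2401 and 1836. Of the adipocyte markers 3 of 8 were tested and 1 rose, Lpl by 1.03 ± 0.150 (2 of 3 at an unadjusted p of 0.05). Their sums were 782 to 922, 1120 to 2027 and 702 to 1127. Pparg, Lep and Cidec, of that list, were near the floor at mean signals of 6.15, 6.59 and 17.3. Which cells gave the signal of this list was not tested.

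The part of these cell types in the class II values was not tested. Without control replicate 2, 0 genes of the cortical epithelial, macrophage, dendritic cell and adipocyte lists were called, with medians of 0.45, 0.52, 0.26 and 0.76. With the 3 arrays of another deposited scale left out, 0, 0, 0 and 1 were called, with medians of 0.52, 0.50, 0.36 and 0.88. Over the 26 alternatives the cortical epithelial, macrophage and dendritic cell lists had 0 calls in 8, 15 and 13. These include no filter on low values, the scale as a term and leaving out any 1 array of estradiol days 3 and 6. The macrophage list also had 0 calls without estradiol day 2 replicate 1 or any 1 array of genistein days 2 and 3, and the dendritic cell list without either estradiol day 2 array. The adipocyte list had at least 1 call in all but 1 of the 26. For genistein over the mean of days limma called 0 genes of these 4 lists and 0 of the medullary, B cell and thymocyte lists, with 3, 5, 1, 1, 3, 0 and 1 at an unadjusted p of 0.05, in that order.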

How the data were processed

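Thymus RNA was measured on 14 Affymetrix arrays. The deposited values are signal intensity from MAS5 5.0, per the submitters' processing notes. The sources used here give no detection calls or scaling target. Precision is limited by the number of arrays. Groups, days, doses and replicate numbers came from the labels, which call the 2 pools of a group independent.

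All arrays were rescaled to one 2%-trimmed mean (150.04). After removal of 64 control probe sets and addition of a pseudocount of 16, log2 values were filtered by leaving out the lowest 40% by mean, which kept 13575. Probe sets were named where the platform annotation gave 1 gene (20393 did, 691 gave several and 1606 none) and were kept apart. limma 3.58.1 (R 4.3.3) fitted 7 group means with an intensity trend. Adjusted p are Benjamini-Hochberg over all probe sets of a comparison. The fit had 7 residual degrees of freedom, 13.74 after moderation. The procedure was tested on simulated data. Figures used matplotlib 3.10.9.

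Named are all member probe sets, up to 4 genes of a list by smallest p, and genes that passed in any comparison. Others were named after their values were seen. The members and lists were chosen with earlier results of these data known. The deviations of same-numbered arrays had a median r of -0.00631 over 21 pairs of groups (from -0.256 to 0.351), with 5 pairs over 0.1. Alternatives were other pseudocounts, filters, scalings and covariates, and leaving out arrays. The counts of listed genes under those settings were added after the data were seen.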

Additional observations from a re-analysis of the deposited data

How the results depend on the processing

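The 2 H2-Ab1 calls over the mean of days of estradiol became 0 with no filter on low values, with arrays centred on the median, with eBayes without a trend and with only the groups compared in the fit. They became 1 with the replicate block, with the 3 arrays of another deposited scale left out and with that scale as a term. The 2 calls at day 6 became 0 on the deposited values, with arrays centred on the median and with only the groups compared, and 1 with no filter, without a trend, with the replicate block and with those 3 arrays left out. On the deposited values 10 of 10 were called for estradiol against both control and genistein, over the mean of days and on day 3 alike, and for change over the days of estradiol, and 6 for the interaction. There the median of all probe sets was shifted by 0.43 over the days of estradiol and 1.01 at day 3, and Cd74 at day 3, estradiol against genistein, went from -0.00 to 1.07 (adjusted p = 0.000140). With quantile normalization 1 was called between the treatments over the mean of days. Leaving out each array in turn gave 0 to 2 calls over the mean of days of estradiol, 0 to 3 at day 6 and 0 to 2 between the treatments over the mean of days. Of the values of single probe sets, 3001 kept their side of the threshold, of which 41, not called, changed sign. A call was gained by 43 and lost by 43, and 1 value was reversed in direction. Day 3 of estradiol has no value once those 3 arrays are left out. Calls over all probe sets for estradiol over the mean of days ran from 4 (without control replicate 2) to 560 (without control replicate 1) on the common scale, against 82. The cause of these changes was not tested, beyond the shift that the deposited scale carries by construction. The labels use the replicate numbers only to name the arrays. Among the class II probe sets the block changed no call beyond the 2 given, while over all probe sets it moved the counts from 82 to 63 and, at day 6, from 89 to 69 for estradiol against control, and from 191 to 145 and from 36 to 15 for the treatments against each other. Low signals limit what could be measured, as for Ciita, whose tested probe set had a mean of 64.4 where the lowest mean tested was 44.5.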
